A study of Mus musculus with 24 samples.

Results

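The nuclear genes that encode the protein subunits of the mitochondrial ribosome were followed in the quadriceps femoris muscle of 24 mice. Members were all genes of the count table whose mouse symbol begins Mrpl or Mrps followed by a number, which gave 77 of 18669 genes, 48 of the large subunit (Mrpl) and 29 of the small subunit (Mrps) by symbol. All 77 had at least 2 counts in at least 10 of the 24 libraries and were tested among 13754 genes. RNA was sequenced from 2 mice in each of 12 groups, which combined 3 genotypes on the B6CBAF1/OlaHsd background with 4 treatments, and muscle was taken 4 h after treatment. The genotypes were wild type, R6/2 and Hsf1-/-. R6/2 mice carry a transgene of exon 1 of human HTT with an expanded CAG repeat and are a model of Huntington's disease, and Hsf1-/- mice lack the transcription factor HSF1 that drives the heat shock response. In the heat shock experiment, HS mice were warmed under isoflurane to a core of 41.5 °C, kept there over 15 min, whereas the core of control mice was held for 21 min at 36.9 °C. In the HSP990 experiment, mice received by gavage 12 mg/kg of HSP990, an inhibitor of the chaperone HSP90, or its vehicle. Wild type and R6/2 mice were 12 weeks old. Hsf1-/- mice were 10 weeks old in the heat shock experiment and 8 weeks old in the HSP990 experiment. Their age therefore cannot be told apart from the loss of Hsf1 in any comparison with wild type mice.

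The mitochondrial ribosome translates the few messages of the mitochondrial genome, all of which encode subunits of the respiratory chain and the ATP synthase. Its ribosomal RNAs come from mitochondrial DNA, and all of its proteins come from nuclear genes, are made in the cytosol and are imported. Part of the proteins have counterparts in bacterial ribosomes and the rest are specific to mitochondria. Muscle fibres are rich in mitochondria, and loss of mitochondrial translation leads to combined defects of the respiratory chain. Symbol and place do not always match. Mrps30 and Mrps18a belong to the large subunit, and Mrps36 is a component of the 2-oxoglutarate dehydrogenase complex and not of the ribosome.

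Library totals ran from 22450177 to 46599238 counts. The R6/2 libraries stood apart from the others in composition. The 20 genes of highest count took 14.66 to 21.92% of counts in the R6/2 libraries and 32.72 to 40.05% in the other 16, and the TMM (trimmed mean of M values) scaling factors were 1.19 to 1.395 against 0.8079 to 0.954. A value scaled by TMM and a plain share of the library therefore differ between R6/2 and wild type muscle, and both are given below. Hsf1 was at 21.1 to 29.0 CPM (the usual depth-scaled count of a gene, with TMM applied) in the 8 Hsf1-/- libraries and at 45.3 to 68.5 CPM in the other 16, which did not overlap. Counts of 4 Y-linked genes summed to at most 4 in the wild type and R6/2 mice of the heat shock experiment and to at least 3916 in every other mouse. In the heat shock experiment, Hsf1-/- and wild type mice thus differed in Y-linked expression as well as in genotype and age, and these cannot be told apart. All 12 skeletal muscle markers were detected in every genotype, and their summed level was 230500 to 266200 CPM in untreated wild type, 256600 to 308400 CPM in untreated Hsf1-/- and 48810 to 82500 CPM in untreated R6/2 mice.

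Levels were first compared between members. A member had a mean of 0.167 to 116 CPM over the 24 libraries, with a median of 38.4 CPM over the 77 genes. Per kilobase of transcript, the scale on which genes can be compared, the median level was 31.1 CPM per kb. The highest were Mrpl42 with 174, Mrps21 with 132, Mrpl14 with 110, Mrpl33 with 102 and Mrpl54 with 94.8 CPM per kb. The lowest were Mrpl23 with 0.242, Mrps33 with 1.43, Mrps36 with 3.29, Mrpl1 with 4.93 and Mrpl47 with 5.20 CPM per kb. The products of these genes are structural components, apart from Mrps36. Of these 10 genes, Mrps21, Mrpl23, Mrps33 and Mrps36 have near-identical copies elsewhere in the mm9 genome, as has Mrps18b. Reads of a gene and its copy could be split in counting, so their levels are uncertain. Mrpl23 had between 0 and 23 counts in a library.

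The members lie on 17 chromosomes, with 11 on chromosome 11 and 8 on chromosome 17. For 17 of the 77 (22.1%) another gene starts within 1000 bp on the opposite strand and runs away from the member, against 9.65% of the 13507 tested genes with a position. These neighbours begin 3 to 935 bp from the member. A pair of members share a locus, since Mrpl46 (chr7:85920122-85928417, minus strand) and Mrps11 (chr7:85928005-85937875, plus strand) overlap at their starts. Overlap with a gene on the other strand was found for 19 members and on the same strand for 5, and 51 members had neither an overlap nor a near-identical copy.

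Promoter windows of RefSeq, from 250 bases before to 50 bases after each annotated start (GRCm38.p6), were matched for 68 members, and sites in them were placed in mm9 by exact match of the sequence. The sites below show the motifs that recur in these windows, at genes that carry the results. Each is 30 bases, written 5′ to 3′ on the strand of the member, with the motif (on either strand) in capitals.
Mrpl12, NRF1 motif, mm9 chr11:120345860-120345889, plus strand: tattgtctccGCGCCTGCGCgtcgcaccgc
Mrpl51, CCGGAA, mm9 chr6:125142116-125142145, plus strand: ccaggggctaaaCCGGAAgtatttgactgg
Mrpl51, CCGGAA, mm9 chr6:125142148-125142177, plus strand: gcgcctcacaggCCGGAActtggagggcgg
Mrps12, CCGGAA, mm9 chr7:29526822-29526851, minus strand: taaggaggaaccCCGGAAggggctggaggt
Mrpl42, AAGATGGC, mm9 chr10:94964538-94964567, minus strand: cagattgaagcAAGATGGCgagcgcgcggt
Mrps7, AAGATGGC, mm9 chr11:115465461-115465490, plus strand: tgacagcggccAAGATGGCtgcccccgcgc

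The motif of the nuclear respiratory factor NRF1, searched as GCGCA, any base and GCGC, was found on either strand in the windows of 13 of 68 members (19.1%), against 10.4% of 10838 tested genes and 5.19% of 27025 genes with a window. The core CCGGAA of ETS factors, the family of GABPA, was found for 39 members (57.4%) against 28.3% of tested genes. The motif AAGATGGC, known for YY1, was found for 12 members (17.6%) against 4.71% of tested genes. TATAAA was found for 5 members (7.35%) against 9.67%. The heat shock element, searched as GAA, TTC and GAA, or TTC, GAA and TTC, in each case 2 bases apart, was found for 0 of 68 members and for 0.591% of tested genes. The 3 motifs of the sites above thus had larger shares among members than among tested genes, and TATAAA a smaller one. The letters of the 5 motifs were counted separately, and a match is a description of the sequence only. Between the 36 members with a window that were called lower in untreated R6/2 muscle and the 32 that were not, the shares were 58.3 and 56.2% for CCGGAA, 22.2 and 15.6% for the NRF1 motif, and 16.7 and 18.8% for AAGATGGC.

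The summed level of the members separated R6/2 mice from the other genotypes. The sum over the 77 genes was 3215 to 3929 CPM in the 8 wild type mice, 3237 to 3551 CPM in the 8 Hsf1-/- mice and 2455 to 3127 CPM in the 8 R6/2 mice. Every R6/2 mouse was below every wild type and every Hsf1-/- mouse on the TMM scale. The same held for the large subunit genes alone, with 1627 to 2076 CPM in R6/2, 2155 to 2645 in wild type and 2177 to 2415 CPM in Hsf1-/- mice. The small subunit genes had 828 to 1067 CPM in R6/2, 1060 to 1284 in wild type and 1006 to 1136 CPM in Hsf1-/- mice, and these ranges overlapped. As a plain share of the library's counts, the order was the opposite, with 0.3286 to 0.3998% in R6/2 and 0.2862 to 0.335% in wild type mice. The large subunit genes together had 1.786 to 2.25 times the CPM of the small subunit genes in each library.

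**Figure D1:**
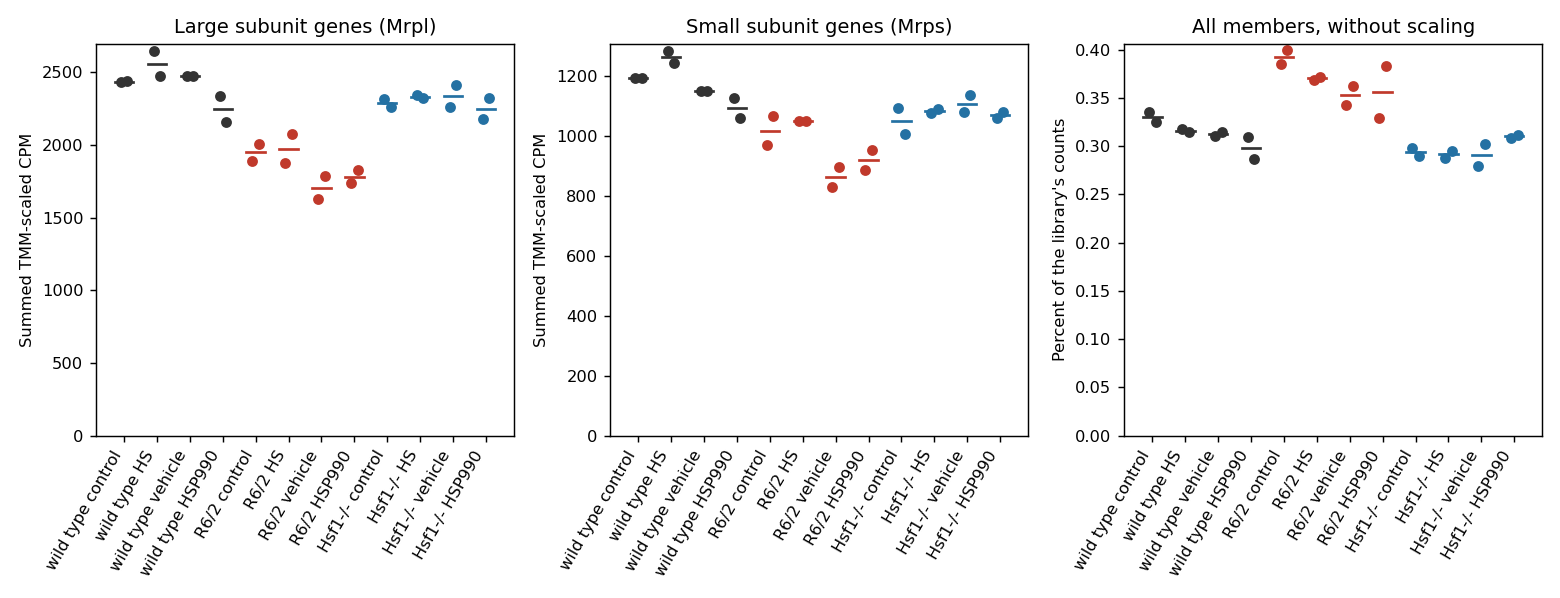
Summed TMM-scaled CPM of the 48 large subunit genes (left) and the 29 small subunit genes (middle), and the percent of each library's counts taken by all 77 members without scaling (right), in 24 mice of 12 groups, where points are mice and lines are group means of 2 mice. On the TMM scale the large subunit sums of the R6/2 mice, 1627 to 2076 CPM, lie below all others and their small subunit sums, 828 to 1067 CPM, overlap those of wild type and Hsf1-/- mice, whereas 7 of 8 R6/2 mice have the highest shares of the library without scaling.

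Untreated R6/2 muscle was compared with untreated wild type muscle, with the control and vehicle mice of each genotype weighted equally (4 mice against 4). On the TMM scale, 42 of 77 members were called lower in R6/2 (adjusted p under 0.05, edgeR quasi-likelihood test with Benjamini-Hochberg adjustment over all 13754 genes) and 0 higher, whereas with scaling by library size alone 36 were called higher and 1, Mrpl42, lower. Of all genes tested, 15.4% were called lower and 15.1% higher (30.5% in either direction) on the TMM scale, and 3.06% lower and 61.5% higher with library size alone. The median log2 fold change of the members was −0.36 beside 0.05 for all genes with TMM, and 0.25 beside 0.66 with library size alone. Relative to the median of all genes the members' median was 0.41 lower on the log2 scale under both. A change of scaling shifts all genes by nearly the same amount, so this agreement was fixed in advance and does not decide between the scalings. DESeq2 called 44 members lower and 0 higher, beside 16.7% of all genes called lower and 15.9% higher. When each of the 8 mice was left out in turn, 33 to 41 members were called on the TMM scale, and 30 of the 42 were called in all 8 fits.

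The difference was found in both subunits and in both classes of protein. With TMM, 28 of 48 large subunit genes and 14 of 29 small subunit genes were called lower, with medians of −0.38 and −0.27, whereas with library size alone 20 and 16 were called higher and the medians were 0.23 and 0.33. Of the 46 proteins with bacterial counterparts, 25 were called lower (median −0.37), and of the 30 specific to mitochondria, 16 were (median −0.35), with 19 and 17 called higher under library size alone. Among the 51 members with no overlap and no near-identical copy, 32 were called lower with a median of −0.38, and 22 were called higher with library size alone. All 4 R6/2 mice were below all 4 wild type mice for 35 members on the TMM scale, and above them for 0 members. For all genes, 13.7% had every R6/2 mouse lower and 14.1% had every R6/2 mouse higher. With the treated mice included (8 against 8), every R6/2 mouse was lower for 17 members and higher for 0, beside 4.9 and 4.67% of all genes.

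**Figure D2:**
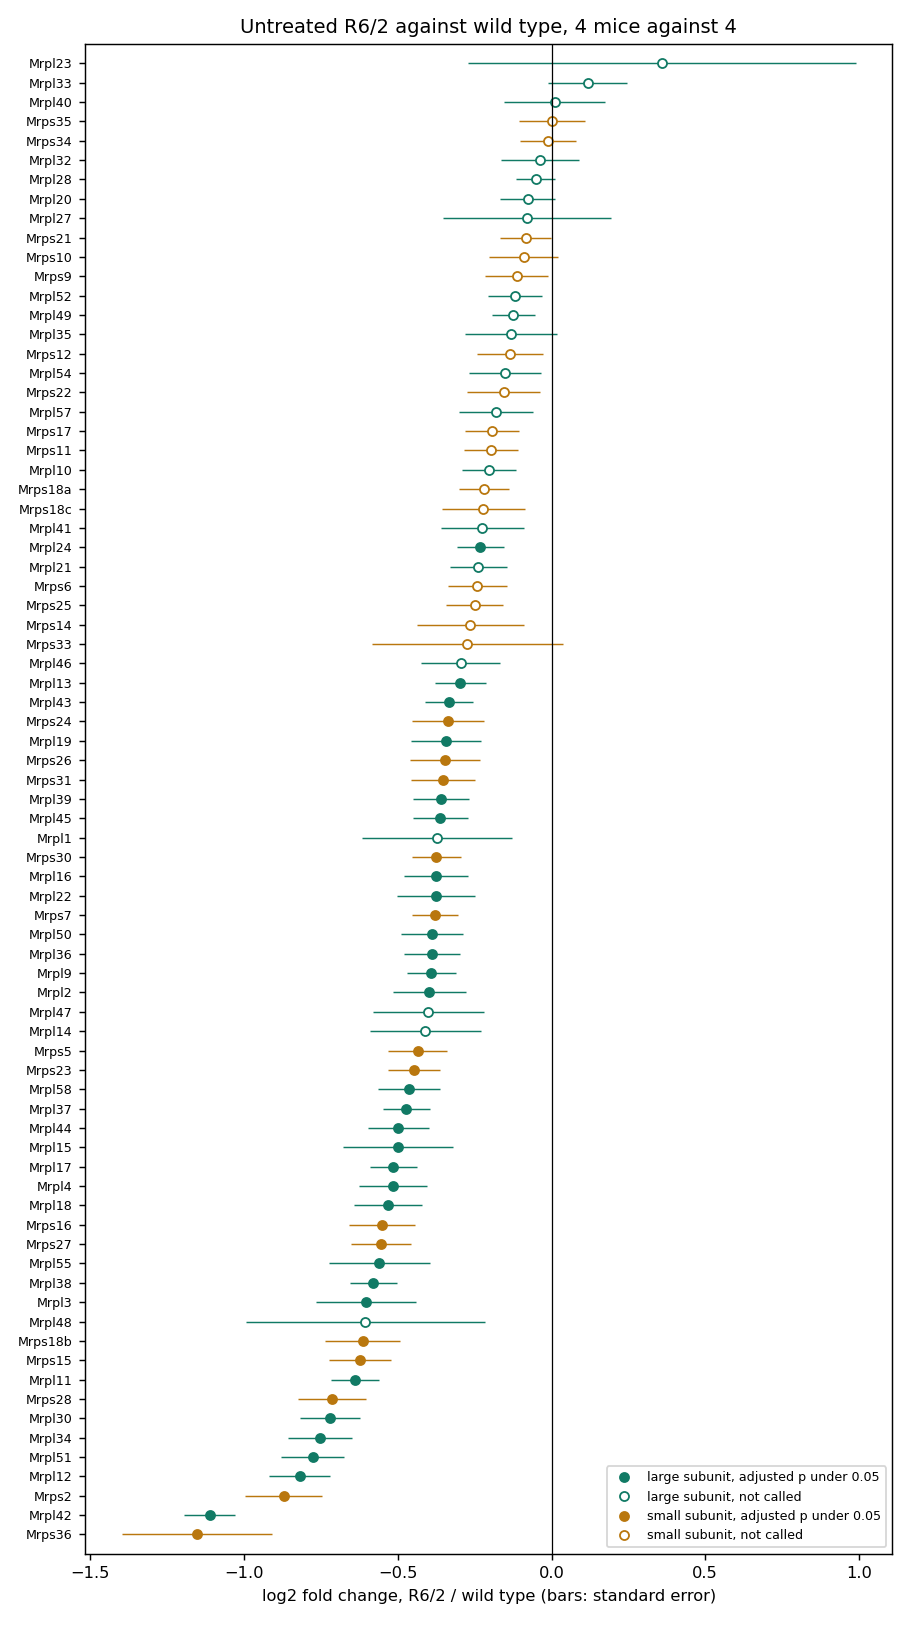
Log2 fold change of each of the 77 members in untreated R6/2 against wild type muscle on the TMM scale (horizontal axis, bars are standard errors, 4 mice against 4), in order of size. Filled symbols mark the 42 members called lower, 28 large and 14 small subunit genes. With library size alone the median of the members was 0.25 in place of −0.36.

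Mrpl42 (chr10:94943440-94964561), which encodes a large subunit protein specific to mitochondria, had the clearest difference. Its level was 163 and 165 CPM in wild type control, 137 and 138 in wild type vehicle, 73.4 and 90.3 in R6/2 control and 55.8 and 62.1 CPM in R6/2 vehicle mice. Groups did not overlap, and the 4 HS and HSP990 treated R6/2 mice, at 63.5 to 97.4 CPM, were also below the 4 treated wild type mice, at 122 to 172 CPM. The log2 fold change was −1.11 ± 0.08 (SE, adjusted p = 3.62e-07), and Mrpl42 was still called lower with library size alone (−0.51, adjusted p = 1.53e-05).

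Mrpl12 (chr11:120345927-120350379) encodes a protein of the flexible stalk, where translation factors bind. It was at 123 and 129 CPM in wild type control, 116.7 and 107 in wild type vehicle, 71.3 and 90.2 in R6/2 control and 54.1 and 58.0 CPM in R6/2 vehicle mice. Every untreated R6/2 mouse was below every untreated wild type mouse, with a log2 fold change of −0.82 ± 0.10 (SE, adjusted p = 1.57e-05). Treated mice overlapped, with R6/2 HS replicate 1 at 112.5 CPM and wild type HSP990 mice at 111.7 and 94.1 CPM. The stalk partners differed from each other in size of effect. Mrpl11, at the base of the stalk, was at 52.8 ± 3.92 CPM in wild type and 34.0 ± 4.45 CPM in R6/2 mice (SD, n = 4), a log2 fold change of −0.64 (adjusted p = 1.6e-05). Mrpl10, to which the stalk protein binds, was at 58.8 ± 6.21 and 51.0 ± 5.77 CPM (SD, n = 4), which missed the threshold (log2 fold change −0.20, adjusted p = 0.0937). With library size alone the log2 fold changes were −0.21 for Mrpl12 (adjusted p = 0.0688), −0.03 for Mrpl11 and 0.40 for Mrpl10, the last called higher.

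Mrps2 (chr2:28323586-28326698), a small subunit protein with a bacterial counterpart, was at 43.8, 34.6, 38.7 and 45.7 CPM in the 4 untreated wild type mice and at 19.1, 25.8, 19.6 and 24.5 CPM in the 4 untreated R6/2 mice. Its log2 fold change was −0.87 ± 0.13 (SE, adjusted p = 8.09e-05). Mrpl51 (chr6:125141819-125145601), a large subunit protein specific to mitochondria, was at 59.3 to 65.9 CPM in wild type and 32.4 to 41.6 CPM in R6/2 mice. Its log2 fold change was −0.78 ± 0.10 (SE, adjusted p = 3.45e-05). Both kept a negative log2 fold change with library size alone (−0.27 and −0.17) but were not called (adjusted p = 0.0789 and 0.148). Mrps36, the member that is no ribosomal subunit, had the largest fold change, −1.15 ± 0.24 (SE, adjusted p = 0.00187), at low levels of 1.98 to 2.74 CPM in wild type and 0.763 to 1.52 CPM in R6/2 mice, and its 2 near-identical copies make it uncertain. With library size alone its log2 fold change was −0.55 (adjusted p = 0.0593).

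Members with roles in decoding, and the S18 paralogs, had unequal values. Mrps12, a counterpart of the bacterial protein that guards decoding accuracy, had −0.13 ± 0.11 (SE) and was not called (adjusted p = 0.375). Mrps7, which helps to organise the head of the small subunit, was at 115 ± 10.3 CPM in wild type and 88.5 ± 12.7 CPM in R6/2 mice (SD, n = 4) and was called lower at −0.38 (adjusted p = 0.000996), whereas with library size alone both were called higher, at 0.47 and 0.23. The counts of Mrps7 are uncertain where it overlaps Gga3 and Mif4gd on the other strand. The 3 paralogs of bacterial S18 are thought to occupy different places in the ribosome. Mrps18b was called lower at −0.61 (18.6 ± 1.204 against 12.2 ± 1.46 CPM, SD, n = 4, adjusted p = 0.00121), and its value rests on a gene with 1 near-identical copy. Its log2 fold change with library size alone was −0.01 and was not called (adjusted p = 0.951). Mrps18a had −0.22 (adjusted p = 0.0504) and Mrps18c −0.22 (adjusted p = 0.235), neither called, and both were called higher with library size alone. Mrpl58, a peptidyl-tRNA hydrolase built into the large subunit that frees stalled chains, was called lower at −0.46 (adjusted p = 0.00224), and Mrps30 at −0.38 (adjusted p = 0.00198), but with library size alone both had positive log2 fold changes, 0.14 and 0.23.

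The 35 members that were not called on the TMM scale included abundant genes. Mrpl33 was at 49.2 ± 1.23 CPM in wild type and 53.3 ± 3.52 CPM in R6/2 mice (SD, n = 4, log2 fold change 0.12, adjusted p = 0.53). It was the only member above 1 CPM with a log2 fold change over 0.1 on that scale. Mrps21, Mrpl28 and Mrps34 had −0.08, −0.05 and −0.01, close to the median of all genes with TMM. Mrpl33, Mrps21, Mrpl28 and Mrps34 were all called higher with library size alone, at 0.72, 0.52, 0.55 and 0.59. Mrpl48 had −0.61 and was not called (adjusted p = 0.261), and its mice spread widely, from 3.91 to 19.5 CPM in wild type and from 3.82 to 12.1 CPM in R6/2. Mrpl33, Mrps34 and Mrpl48 overlap Bre, Nme3 and D630004N19Rik on the same strand, and Mrps21 has a near-identical copy. The counts of these members are therefore uncertain.

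The untreated difference was also taken within each experiment, which share no mice. The experiments also differed in handling, with isoflurane in one and gavage in the other. Y-linked expression of both genotypes was almost absent in the heat shock experiment and present in the HSP990 experiment. For any difference between the experiments, handling and Y-linked expression therefore cannot be told apart. Among control mice of the heat shock experiment the median of the members was −0.23 with 13 called lower, and among vehicle mice of the HSP990 experiment it was −0.47 with 39 called lower, where 6.94 and 10.5% of all genes were called lower. With TMM the log2 fold change was negative in both experiments for 65 of the 77 members, and 66 had the lower value in the HSP990 experiment. The 13 members called in the heat shock experiment were all called in the HSP990 experiment. Over the 77 members the values of the experiments had a Pearson r of 0.62 and a Spearman rho of 0.675, as a description across genes, which are not independent replicates. The r was 0.717 over the 72 members without near-identical copies and 0.505 over all genes tested. The difference between the experiments was then tested as an interaction, a comparison chosen after the data had been seen. The members' median was −0.22, 0 of 77 members and 0% of all genes were called by edgeR, 0 members and 20 genes by DESeq2, and 6 members had an unadjusted p under 0.05, all lower in the HSP990 experiment, beside 5.29% of all genes in either direction. With library size alone the median of the interaction was −0.08.

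**Figure D3:**
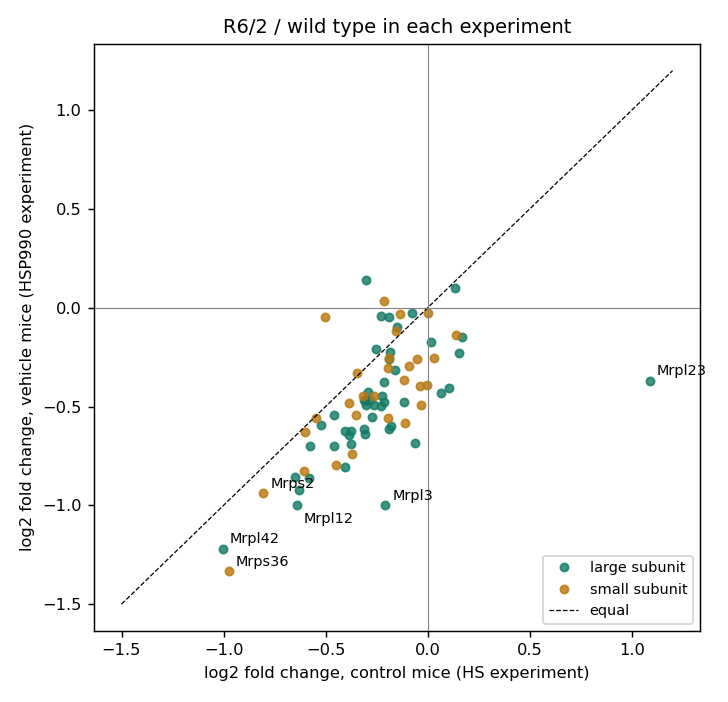
Log2 fold change of each member in R6/2 against wild type on the TMM scale, among control mice of the heat shock experiment (horizontal) and vehicle mice of the HSP990 experiment (vertical), 2 mice against 2 in each, with a dashed line where both are equal. Most members lie below and left of zero, 65 of 77 in both experiments, and 66 lie below the dashed line, whereas with library size alone the median over both experiments was 0.25. Mrpl23, the point at the far right, had at most 23 counts in a library.

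Other genes of the same process were taken from lists chosen for their role. With TMM, 3 of 5 mitoribosome proteins with other symbols were called lower in untreated R6/2 muscle, Ptcd3 at −0.75, Aurkaip1 at −0.37 and Chchd1 at −0.32, and with library size alone 3 were called higher. Of 13 translation factors, 7 were called lower and 0 higher (with library size alone 2 lower and 6 higher). They included Gfm2, a ribosome recycling factor, at −0.97, Taco1, an activator of Cox1 translation, at −0.95 and Tufm, the elongation factor Tu, at −0.84. Of 21 assembly and rRNA modification genes tested, 9 were called lower and 0 higher (with library size alone 12 higher), led by Mrm1 at −0.86, Mtg1 at −0.68 and Mrm3 at −0.54. Of 15 genes of mitochondrial transcription and RNA stability, 8 were called lower (with library size alone 8 higher), among them Lrpprc at −0.82, Fastk at −0.60 and Tefm at −0.55. Beside these counts, 15.4% of all genes were called lower and 15.1% higher with TMM. With library size alone, 3.06% of all genes were called lower and 61.5% higher. Relative to the median of all genes, the medians of these 4 lists were 0.37, 0.36, 0.29 and 0.40 lower on the log2 scale.

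Of 10 nuclear regulators of mitochondrial genes, Ppargc1b (−1.10) and Gabpb2 (−0.39) were called lower and Gabpa (0.40) higher in untreated R6/2 muscle. The list's median was 0.01, and with library size alone it was 0.61, with 6 called higher and 1 lower. The 78 tested nuclear genes for respiratory chain subunits, many of whose partners the mitochondrial ribosome makes, had a median of −0.54 with 68 called lower on the TMM scale, and with library size alone 11 were called lower and 15 higher. The 63 tested genes for cytosolic ribosomal proteins had a median of 0.08 with 3 called in each direction, and with library size alone 38 were called higher and 0 lower. For these lists and the markers below, the shares of all genes are 15.4% called lower and 15.1% higher with TMM. They are 3.06% lower and 61.5% higher with library size alone. These lists were not tested against the members. All 12 skeletal muscle markers were called lower in R6/2 muscle, with a median of −1.95. Leukocyte markers summed to 50.5 to 76.7 CPM in R6/2 and 38.5 to 68.5 CPM in wild type mice. Among the other marker lists, 2 of 7 adipocyte markers were called lower, 1 of 6 fibroblast and 1 of 8 leukocyte markers higher, and none of 7 endothelial, 4 nerve and 3 erythroid markers was called. With library size alone, 11 skeletal muscle markers and 1 adipocyte marker were called lower, and 6 endothelial, 4 leukocyte, 3 fibroblast, 1 adipocyte and 1 nerve marker higher. Of all these markers, 1 leukocyte marker was at 0 in all 4 untreated wild type mice. The part of fibre composition in the members' difference was not tested, and in whole muscle fewer cells of a type and less RNA per cell cannot be told apart.

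Of the genes that start beside a member on the opposite strand, 14 were tested. In untreated R6/2 muscle their median was −0.07, with 2 called lower and 1 higher, beside a median of −0.31 and 7 called lower for the members next to them. Of all genes tested, 15.4% were called lower and 15.1% higher in this comparison. Mrpl30 had −0.72 (adjusted p = 4.72e-05) and its neighbour Mitd1, 66 bp away, −0.07 (adjusted p = 0.853). Mrps27 and its neighbour Ptcd2, 108 bp away, were both called lower, at −0.56 and −0.43. At the Mrps12 locus the neighbour Sars2, the mitochondrial seryl-tRNA synthetase, was called lower at −0.69 (adjusted p = 0.000941) and Mrps12 was not. These values are on the TMM scale, and neighbours were not recomputed with library size alone.

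Untreated Hsf1-/- muscle was compared with untreated wild type muscle in the same way. Of the 77 members 3 were called lower, Mrps12, Mrps7 and Mrpl54, and 0 higher, beside 0.691% of all genes called lower and 0.284% called higher (0.974% in either direction). The median of the members was −0.09 beside 0.00 for all genes, and 55 members had a negative log2 fold change. The spread between mice gave that median an SD of 0.06. DESeq2 called 6 members lower, and Mrpl35 higher, beside 1.53 and 1.15% of all genes. All 4 Hsf1-/- mice were below all 4 wild type mice for 15 members and above them for 2, Mrpl15 and Mrpl35, against 4.24 and 3.16% of all genes.

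Mrps12 (chr7:29524660-29526839, minus strand) was at 49.96 and 50.4 CPM in wild type control, 47.2 and 41.5 in wild type vehicle, 26.8 and 24.4 in Hsf1-/- control and 32.6 and 36.2 CPM in Hsf1-/- vehicle mice. The log2 fold change was −0.67 ± 0.11 (SE, adjusted p = 0.00787). All 8 Hsf1-/- mice, at 24.4 to 38.8 CPM, were below all 8 wild type mice, at 41.5 to 52.0 CPM. This held for Mrps12, Mrps28 and Mrps6, 3 of 77 members, against 0.553% of all genes. Sars2, which starts 171 bp away on the other strand, had −0.13 (adjusted p = 0.704). Among untreated mice, Mrps7 was at 104 to 126 CPM in wild type and 83.7 to 91.1 CPM in Hsf1-/- (log2 fold change −0.37 ± 0.07, SE, adjusted p = 0.0261). Mrpl54, a large subunit protein specific to mitochondria, was at 64.2 to 69.7 and 37.5 to 55.1 CPM in the same mice (−0.53 ± 0.12, SE, adjusted p = 0.0458). Groups of untreated mice did not overlap for any of the 3. With the treated mice included, the genotypes overlapped for Mrps7 and Mrpl54.

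These calls rested on few mice. When each of the 8 mice was left out in turn, Mrps7 and Mrpl54 were called in none of the fits. Mrps12 was called in 7 and lost its call without wild type vehicle replicate 1 (adjusted p = 0.0528, edgeR). Within the heat shock experiment, where the genotypes also differed in Y-linked expression, 3 members (Mrps12, Mrps7 and Mrpl42) were called lower and 2 (Mrpl47 and Mrpl50) higher, beside 1.17% of all genes called lower and 0.763% higher. Within the HSP990 experiment, where both genotypes had Y-linked expression, 0 members were called, beside 0.08% of all genes called lower and 0.00727% higher, and the log2 fold changes were −0.37 for Mrps12, −0.25 for Mrps7 and −0.38 for Mrpl54.

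**Figure D4:**
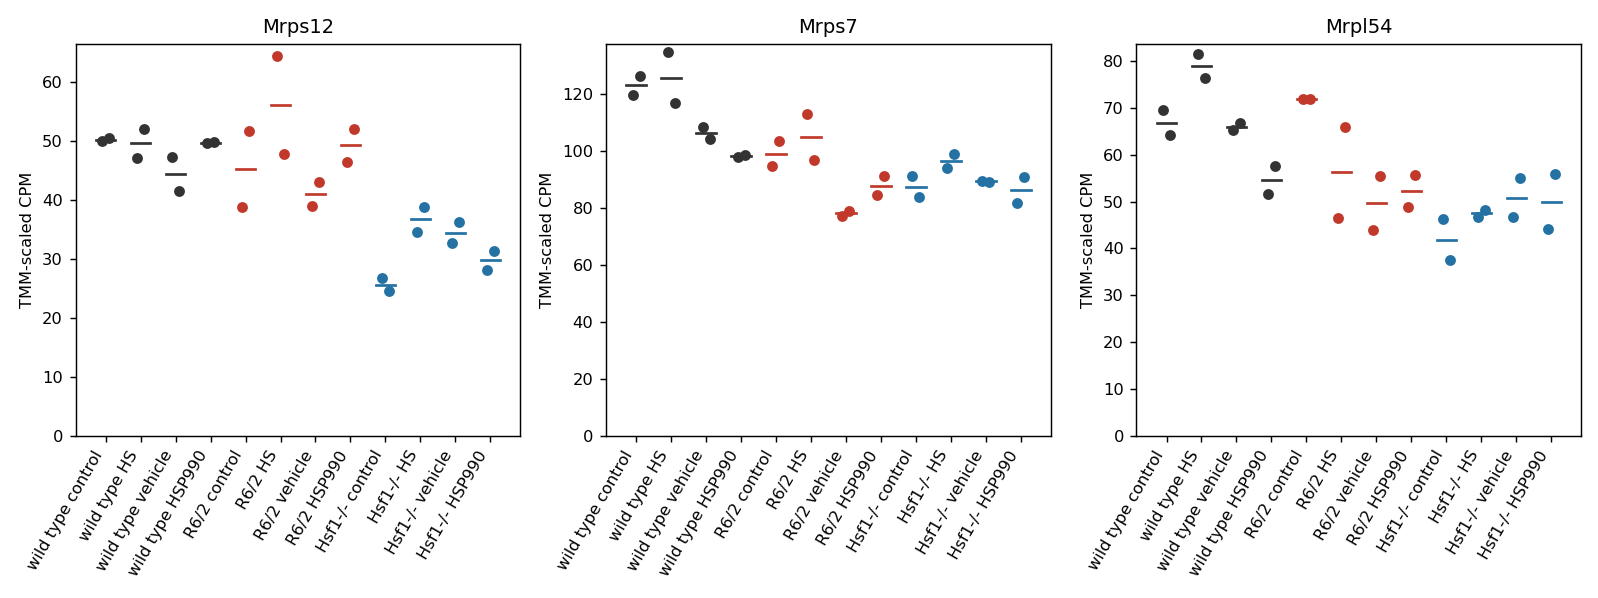
TMM-scaled CPM of Mrps12, Mrps7 and Mrpl54 in 24 mice of 12 groups, where points are mice and lines are group means of 2 mice. For Mrps12 all 8 Hsf1-/- mice lie below all 8 wild type mice, from 24.4 to 38.8 against 41.5 to 52.0 CPM.

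Heat shock was compared with control in each genotype. No member was called in wild type (2.06% of all genes called), R6/2 (0.0436%) or Hsf1-/- mice (0.00727%) by edgeR, and DESeq2 called 0 as well. Medians of the members were 0.08, 0.01 and 0.03, and with library size alone they were negative, at −0.06, −0.11 and −0.02. At an unadjusted p under 0.05 there were 2 members in wild type, 3 in R6/2 and 2 in Hsf1-/- mice, beside 11.8, 8.12 and 8.80% of all genes. In the same samples Hspa1a, the inducible HSP70 gene, rose in wild type (7.11) and R6/2 (4.15) and had −0.17 in Hsf1-/- mice (adjusted p = 0.977). Ppargc1a, a coactivator of mitochondrial gene expression, rose in wild type (log2 fold change 2.04, adjusted p = 0.0126) and Hsf1-/- mice (3.12, adjusted p = 0.0162) and was not called in R6/2 mice. The difference of the HS response between genotypes was then tested with all mice. For R6/2 against wild type the median of the difference was −0.06 and 0 members were called (0.0727% of all genes), and for Hsf1-/- against wild type it was −0.04 with 0 called (0.16%), and 0.06 with library size alone. At an unadjusted p under 0.05 there were 1 and 3 members, beside 4.86 and 3.72% of all genes, and DESeq2 called 0 in both.

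The R6/2 HS mice differed from each other for some members. Mrpl1 was at 14.8 and 10.9 CPM in R6/2 control mice and at 4.49 and 15.1 CPM in R6/2 HS mice. Mrpl47 was at 11.7 and 10.1 in control and 5.22 and 12.1 CPM in HS mice, and Mrpl2 at 64.9 and 76.2 in control and 107 and 67.3 CPM in HS mice. In each case replicate 1 of the HS mice stood apart and replicate 2 lay within or near the control values. Without replicate 2, a lone R6/2 HS mouse remained, and some members are named here after their values were seen. Their HS log2 fold changes were then −1.52 for Mrpl1, −0.70 for Mrpl32, −0.88 for Mrpl40 and −1.06 for Mrpl47. Mrpl2 had 0.595 and Mrps24 0.567. In that fit the HS response of R6/2 against wild type was −1.76 for Mrpl1 and −0.84 for Mrpl32. The HS against the HSP990 response in R6/2 mice was −1.5 for Mrpl1 and −1.16 for Mrpl47.

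HSP990 was compared with vehicle in each genotype, and Mrps6 was the only member called. Mrps6 (chr16:92058515-92112472), a small subunit protein with a bacterial counterpart, was at 20.6 and 22.4 CPM in wild type vehicle and 40.2 and 35.4 CPM in wild type HSP990 mice. In R6/2 mice it was at 15.9 and 17.4 in vehicle and 25.1 and 28.3 CPM after HSP990, and in Hsf1-/- mice at 17.7 and 19.3 in vehicle and 20.1 and 15.2 CPM after HSP990. Values of treated and vehicle mice were apart in wild type and R6/2 and overlapped in Hsf1-/- mice. Mrps6 rose by 0.81 ± 0.14 on the log2 scale in wild type (SE, adjusted p = 0.00397) and by 0.68 ± 0.14 in R6/2 mice (adjusted p = 0.0165), where 1.45 and 0.473% of all genes were called higher (1.85 and 1.43% in either direction). The call in wild type mice was lost without HSP990 replicate 1 (adjusted p = 0.058) and without vehicle replicate 1 (adjusted p = 0.052), and the call in R6/2 mice was lost when any of the 4 mice was left out.

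After heat shock Mrps6 was at 32.0 and 28.8 CPM in wild type mice against 21.7 and 26.2 in control, which missed the threshold (log2 fold change 0.34, adjusted p = 0.292). The HSP990 response of Mrps6 in Hsf1-/- against wild type mice was −0.87 ± 0.20 (SE, adjusted p = 0.0765), not called by edgeR, where 0.422% of all genes were called. DESeq2 called it, and so did edgeR without Hsf1-/- HSP990 replicate 1. It was the only member with an unadjusted p under 0.05 in that comparison, beside 6.89% of all genes.

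The counts of Mrps6 cannot be taken as those of its own transcript alone, because Slc5a3 (chr16:92058567-92087718), the sodium and myo-inositol cotransporter, lies within it on the same strand. Slc5a3 was at 8.48 and 8.34 CPM in wild type vehicle and 31.9 and 26.0 CPM after HSP990, 10.5 and 9.26 against 23.5 and 22.7 CPM in R6/2, and 8.90 and 9.88 against 13.2 and 11.3 CPM in Hsf1-/- mice. It rose in wild type (1.78, adjusted p = 3.19e-06) and R6/2 mice (1.22, adjusted p = 0.000327), by more than Mrps6 in each, and its response was smaller in Hsf1-/- than in wild type mice (interaction −1.40, adjusted p = 0.00464). After heat shock Slc5a3 rose in wild type mice (1.18, adjusted p = 0.000646) and was not called in R6/2 mice (0.63, adjusted p = 0.177). Its heat shock response was smaller in Hsf1-/- than in wild type mice (interaction −1.23, adjusted p = 0.033), so the overlap bears on both treatments. How reads in the shared region were assigned is not given in the sources used here, and the part of Slc5a3 in the counts of Mrps6 was not tested.

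**Figure D5:**
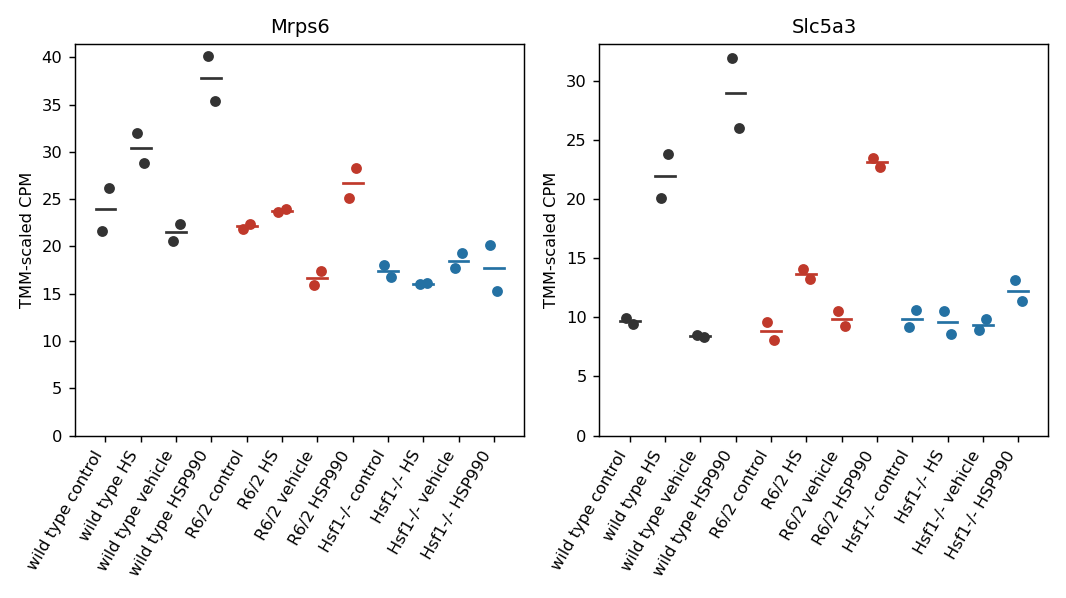
TMM-scaled CPM of Mrps6 (left) and of Slc5a3, which overlaps it on the same strand (right), in 24 mice of 12 groups, where points are mice and lines are group means of 2 mice. Both were higher after HSP990 than after vehicle in wild type and R6/2 mice. Mrps6 overlapped in Hsf1-/- mice, with 17.7 and 19.3 against 20.1 and 15.2 CPM.

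The other members moved little with HSP990, and none of them was called. The median of the 77 was −0.11 in wild type mice, where 64 had a negative log2 fold change, 0.07 in R6/2 mice, where 51 had a positive one, and −0.05 in Hsf1-/- mice, where it was 0.10 with library size alone. The spread between mice gave each of these medians an SD of 0.09, and the shares of all genes by sign are not given here. No member was called in Hsf1-/- mice by edgeR or DESeq2 (0.218% of all genes by edgeR), and 2 had an unadjusted p under 0.05, beside 9.48% of all genes. In R6/2 mice Mrps2 was at 19.6 and 24.5 CPM in vehicle and 31.5 and 30.2 CPM after HSP990 and did not pass (0.49 on the log2 scale, adjusted p = 0.295). The difference of the HSP990 response between R6/2 and wild type mice had a median of 0.19 over the members, with 65 of 77 positive, beside 0.00 for all genes, and 0.08 with library size alone. The SD of this median from the spread between mice was 0.13. No member and 0% of all genes were called by edgeR, no member was called by DESeq2, and 2 members, Mrpl42 and Mrpl34, had an unadjusted p under 0.05, beside 7.13% of all genes.

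Heat shock and HSP990 responses were compared directly within each genotype. In wild type mice the median of the members was 0.17, higher after heat shock, with 65 of 77 positive, but it was −0.02 with library size alone, and 0 members were called (2.38% of all genes). The spread between mice gave this median an SD of 0.13. In R6/2 and Hsf1-/- mice the medians were −0.09 and 0.09 (−0.14 and −0.10 with library size alone), and 0 members were called in either (1.63 and 0.145% of all genes). At an unadjusted p under 0.05 there were 5, 2 and 3 members, beside 14.9, 10.5 and 10.9% of all genes, and DESeq2 called 0 in each. Mrps12 was among them in Hsf1-/- mice, where it was at 26.8 and 24.4 CPM in control, 34.5 and 38.8 after HS, 32.6 and 36.2 in vehicle and 28.03 and 31.4 CPM after HSP990 (log2 difference 0.73 ± 0.22, SE, adjusted p = 0.222). These comparisons share their vehicle and control mice with those above. The experiments also differed in handling, in Y-linked expression of wild type and R6/2 mice, and in age of Hsf1-/- mice. A difference between the responses cannot be told apart from these.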

How the data were processed

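Per the labels and the study's methods, polyadenylated RNA of quadriceps femoris was sequenced in strand-specific paired-end libraries and mapped to mm9 with Bowtie. The counting program and annotation are not given in the sources used here. The deposited values are raw counts per gene, used as the authors deposited them, for 18669 genes in 24 libraries, with totals of 22450177 to 46599238. The spread between 2 mice a group, rather than depth, limits the precision of all but the lowest members.

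The members and gene lists were chosen with earlier results of these data known. The 13754 genes that reached 2 counts in 10 or more libraries were fitted with the quasi-likelihood test of edgeR 4.0.16 (R 4.3.3, limma 3.58.1), with TMM scaling, 12 groups and 12 residual degrees of freedom. P-values were adjusted by Benjamini-Hochberg within each of 16 comparisons, at a threshold of 0.05. Scripts were tested on simulated data. The alternatives were DESeq2 1.42.0, other scalings and filters, thinned counts, a replicate block, each experiment alone and each mouse left out. A comparison of the experiments, and TMM factors made without the 20 genes of highest count, were chosen after seeing the data.

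Symbols were matched for 18594 genes. Levels per kilobase used the median length of protein-coding transcripts in GENCODE vM1. Near-identical copies were found with minimap2 2.31, where 50% or more of the transcript matched with a divergence no higher than 0.02. Named members were up to 5 with the largest rise and up to 5 with the largest fall among those called in a comparison, the 5 highest and 5 lowest per kilobase, and members fixed by role, with up to 3 called genes of each other list. Mrpl28, Mrps34, Mrpl48, Mrps28, Mrpl35, members beside a neighbour, Mrps2 after HSP990 in R6/2 mice and the members of the R6/2 HS mice were named after their values were seen. Mrpl53 was not analysed here.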

Additional observations from a re-analysis of the deposited data

How the results depend on the processing

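Scaling decided the direction of the untreated R6/2 difference. With library size alone, 37 members were called (36 higher and 1 lower) in place of 42 lower, the median was 0.25, and the log2 fold changes of Mrpl10 (0.40), Mrps12 (0.47), Mrps7 (0.23), Mrps18a (0.39), Mrps18c (0.38), Mrpl58 (0.14) and Mrps30 (0.23) were positive. The same scaling gave medians of −0.0627 for HS in wild type, −0.11 for HS in R6/2, 0.10 for HSP990 in Hsf1-/-, −0.0195 and −0.102 for the HS against the HSP990 response in wild type and Hsf1-/-, and −0.0825 for the difference between the experiments. With the HS experiment alone, 13 members were called in untreated R6/2 (median −0.23) and 5 in untreated Hsf1-/- mice. With the HSP990 experiment alone, the R6/2 median was −0.47 and 0 members were called in Hsf1-/- mice. DESeq2 called 7 members in untreated Hsf1-/- mice and 1 for the HSP990 response of Hsf1-/- against wild type, and a fit of only the groups compared called 0 for HSP990 in R6/2. Each experiment alone has fewer mice, and otherwise the cause was not tested.

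With each mouse left out in turn, the members called ranged from 0 to 6 for HS in R6/2 (median −0.12 to 0.10), 0 to 1 for HSP990 in wild type, 0 to 0 for HSP990 in R6/2, 0 to 1 for untreated Hsf1-/-, 0 to 2 for the HS response of R6/2 against wild type (median −0.209 to 0.0196), 0 to 1 for the HSP990 response of Hsf1-/- against wild type and 0 to 2 for the HS against the HSP990 response in R6/2. The lone mouse left in a group was taken to vary like the others. The shares of all genes called in the fits with a mouse left out are not given here, so their counts of members have no background beside them. Replicate numbers did not pair the mice (r of −0.385 to 0.393 over 66 pairs of groups, 12 over 0.1), and a replicate block called 41 members in untreated R6/2 muscle and changed no other count of called members. Of the counts and medians under all alternatives, 467 stayed within the limits used (1.5 times for a count, 1 SD between mice for a median), 36 moved beyond them and 1, the count of called members in untreated R6/2 muscle, turned its direction. Separately from these limits, the sign of the median changed with library size alone in 8 of 16 comparisons. Of the values of named members, 295 kept their direction and side of the threshold, 40 lost their call, 7 gained it and 7 turned their direction.

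Each group had 2 mice, which limits the tests more than the depth does. TMM scaling assumes that the bulk of genes does not change, which counts alone cannot test in R6/2 muscle. Age cannot be told apart from the loss of Hsf1. Nor can Y-linked expression in the heat shock experiment and in genotype comparisons that include its mice. A difference between the experiments in wild type and R6/2 mice cannot be told apart from handling and Y-linked expression. Overlapping genes or near-identical copies limit 26 members. Counts of members by sign have no share of all genes beside them, and the members of a library share its scaling.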
